A study of Mus musculus with 6 samples.

Results

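The 32 genes described here encode enzymes of sterol synthesis, regulators that sense sterols, proteins of sterol export and lipid storage, and enzymes that make and modify fatty acids. They were taken from a list by gene symbol, and all 32 were found among the 15487 genes of the deposited table. The enzymes of sterol synthesis number 15, the sterol sensing regulators 3, the genes of sterol efflux, uptake control and storage 5, and the genes of fatty acid synthesis, desaturation and elongation 9. RNA came from tumour-associated macrophages that had been sorted by flow cytometry from tumours of CT26, a mouse colon carcinoma line, on day 15. The tumours are labelled Sg-Con or Sg-C3, taken here to mean tumour cells that received a control guide RNA or one directed at the complement gene C3, and each group has 3 libraries numbered in accession order. Both groups share the BALB/C background, the implanted line, the day and a wild type label. Not stated are the age and sex of the mice, the sorting gate, and whether the Sg-C3 tumour cells were a clone or a pool. No label ties a library to an animal of its own, so every p-value rests on the spread among libraries, and that spread could be technical.

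Cells make cholesterol from acetyl-CoA by way of mevalonate, farnesyl diphosphate, squalene and lanosterol. When membrane sterol is low, the transcription factor SREBP-2, encoded by Srebf2, is released by cleavage and switches on most of these enzymes, while the protein made from Insig1 holds it back. When oxysterols are plentiful, the LXR nuclear receptors induce exporters such as Abca1 and Abcg1 together with Srebf1, whose product SREBP-1c drives the synthesis and desaturation of fatty acids. Macrophages that take up dead cells and lipoproteins rely on export and on lipid droplets to handle the load.

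Levels are FPKM, which divides by gene length and library depth, so that genes can be compared with each other. The steps between low values implied 17.6 to 19.3 megareads per library. Libraries of a group correlated at Pearson r of 0.986 to 0.990 across genes on the log2(FPKM + 1) scale, and libraries of different groups at 0.945 to 0.974. The 8 macrophage markers were present in every library, their sum being 9161 to 10898 FPKM in Sg-Con and 4005 to 5390 FPKM in Sg-C3, and 4 of the 8 were called lower. Most of that sum is the lysozyme gene Lyz2, with 6928, 8718 and 7490 FPKM in Sg-Con and 2710, 3695 and 3730 FPKM in Sg-C3. Cd68, Itgam and Mertk were also called lower, at 0.556, 0.582 and 0.324 of their Sg-Con means. Adgre1 and Fcgr1 stood at 0.992 and 0.983 of theirs and were not called (limma adjusted p = 0.896 and 0.822). The log2 fold changes of all 8 markers were below 0, with a median of -0.71. Neutrophil markers (10 genes) summed to 139 to 221 and 389 to 1332 FPKM, with 4 of 7 tested higher. Dendritic cell markers (10 genes) summed to 13.3 to 18.7 and 45.1 to 69.9 FPKM. The largest part in Sg-C3 is Ccr7, with means of 2.43 FPKM in Sg-Con and 32.8 FPKM in Sg-C3. Xcr1, Clec9a and Batf3 also lay wholly higher in Sg-C3, and Fscn1 overlapped. Flt3, Zbtb46, Itgae, Cd209a and Siglech were under 1 FPKM in every library. T, NK and B cell markers (13 genes) summed to 3.05 to 6.67 and 34.9 to 41.4 FPKM. Fibroblast markers (10 genes) summed to 67.5 to 93.3 and 143 to 208 FPKM, with 4 of 8 tested higher and 2 lower. Endothelial markers (6 genes) summed to 10.9 to 18.2 and 60.5 to 79.3 FPKM. Most of the endothelial sum in Sg-C3 is Pecam1, with means of 8.99 FPKM in Sg-Con and 61.25 FPKM in Sg-C3. Cdh5 went the other way, from 1.84 to 0.703 FPKM, and Kdr overlapped between the groups. Vwf, Cldn5 and Esam were under 1 FPKM in every library. Carcinoma markers (8 genes) summed to 29.2 to 63.6 and 2.98 to 7.7 FPKM. Most of the Sg-Con sum is Krt8 and Krt20, with means of 14.3 and 22.1 FPKM in Sg-Con and 0.323 and 3.27 FPKM in Sg-C3. Cdh1 also lay wholly lower in Sg-C3, and Epcam, Krt18, Krt19, Cldn4 and Cldn7 overlapped. Calls are not counted for the dendritic cell, lymphocyte, endothelial and carcinoma lists, in which some genes passed the filter through 1 group alone. The defining genes Ly6g and Camp of neutrophils and Cd3g, Nkg7 and Ncr1 of lymphocytes were at 0 in at least 1 Sg-Con library and above 0 in every Sg-C3 library. Cldn5 of endothelium and Cldn4 of carcinoma were at 0 in some Sg-C3 libraries and above 0 in every Sg-Con library. Adipoq and Cfd of adipocytes summed to at most 2.16 FPKM. The part of other cell types in the values below was not tested, and in bulk RNA fewer cells of a type and less RNA per cell cannot be told apart. C3 itself read 89.9, 78.2 and 59.7 FPKM in Sg-Con and 151, 199 and 170 FPKM in Sg-C3, which does not check the guide, since the tumour cells carried it.

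Most of the sterol and fatty acid genes were not called different between macrophages of Sg-Con and Sg-C3 tumours. The mevalonate pathway gene Pmvk was 2.04-fold higher in Sg-C3, and Mylip, the gene of a ubiquitin ligase that limits lipoprotein uptake, was 1.25-fold higher. The cholesterol esterification gene Soat1, the desaturase genes Scd2 and Fads1, and the sterol synthesis genes Sqle and Nsdhl were lower, at 0.596, 0.484, 0.595, 0.638 and 0.718 of the Sg-Con mean. A gene was called when its limma p-value, adjusted over all 11198 tested genes, was below 0.05. By that rule 2 of the 32 genes (6.25%) were higher and 5 (15.6%) lower, against 12.7% and 31.7% of all tested genes. The Sg-C3 values lay wholly above those of Sg-Con for 2 of the 32 and wholly below for 8, against 16.2% and 41.4% of all tested genes. The median log2 fold change of the 32 was -0.06, against -0.16 for all tested genes, and the median absolute change was 0.27 against 0.34. A log2 fold change here is the Sg-C3 mean less the Sg-Con mean of log2(FPKM + 1), a scale on which low genes appear to change less than they do. All 32 reached 1 FPKM in all libraries of each group, so none was tested only because of its higher group. The counts changed when single libraries were left out. Leaving out the second Sg-C3 library left 1 higher and 0 lower by limma, against 7.35% and 17.9% of all tested genes. In that fit 7 of the 32 had an unadjusted p under 0.05, 5 of them lower, and all tested genes were not counted that way. With all libraries, 8 of the 32 had an unadjusted limma p under 0.05, against 6088 of all 11198. Leaving out the first Sg-C3 library left 1 higher and 1 lower, against 7.98% and 21.9% of all tested genes. Leaving out the second or the third Sg-Con library left 1 higher and 3 lower. The shares of all tested genes were then 9.07% or 11.9% higher and 22.9% or 25.1% lower. Median-ratio scaling gave 3 higher and 2 lower, against 18.7% and 19% of all tested genes.

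**Figure D1:**
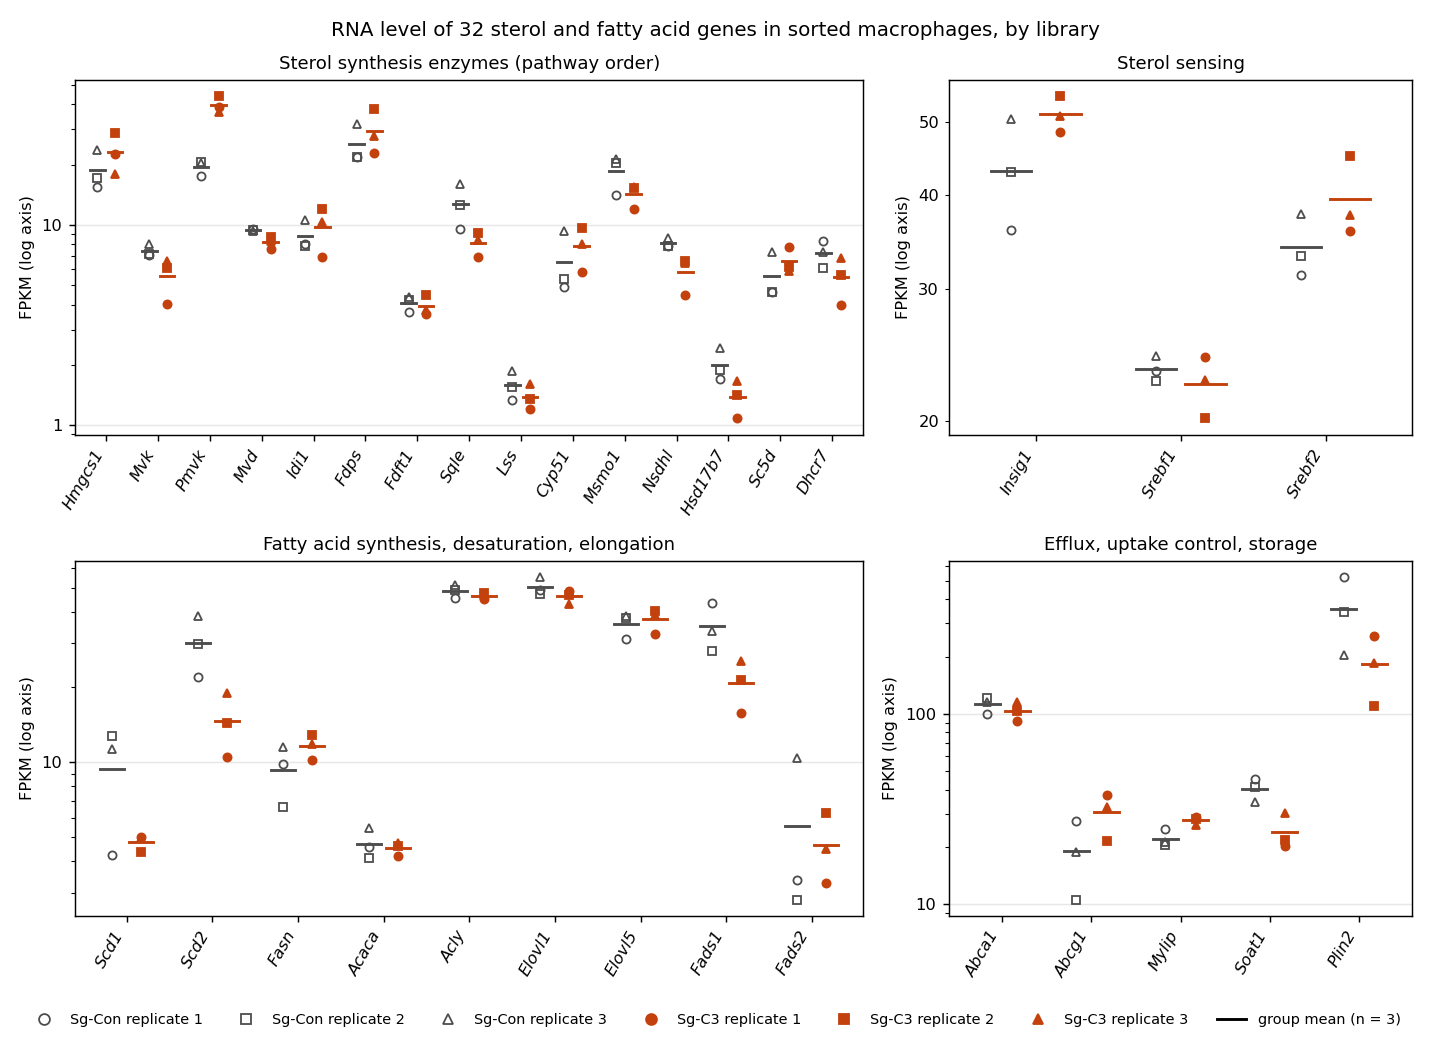
FPKM of the 32 genes in each library on log axes, in 4 panels by role, with open grey symbols for Sg-Con, filled orange symbols for Sg-C3 and bars for the means of 3 libraries. Pmvk stands apart between the groups, with means of 19.5 and 39.8 FPKM, while most other sterol enzymes overlap or nearly touch.

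In the mevalonate arm, from acetyl-CoA to farnesyl diphosphate, Pmvk was called and 5 other genes were not. Pmvk encodes phosphomevalonate kinase, which adds the second phosphate to mevalonate. It read 17.6, 20.7 and 20.3 FPKM in Sg-Con and 38.7, 44.1 and 36.5 FPKM in Sg-C3. Every Sg-C3 library is far above every Sg-Con library, and the log2 fold change was 0.99 (SE 0.11, adjusted p = 0.00187). The call held in all 14 alternative fits, with log2 fold changes of 0.91 to 1.15 and adjusted p from 0.00105 to 0.0109. Mvk encodes mevalonate kinase, the step just before, and read 7.11, 7.14 and 8.06 FPKM in Sg-Con and 4.03, 6.08 and 6.61 FPKM in Sg-C3. All Sg-C3 values are lower, but the gene was not called (log2 fold change -0.38, SE 0.17, adjusted p = 0.0993). Mvd encodes the decarboxylase that follows Pmvk, and read 9.56, 9.46 and 9.29 FPKM in Sg-Con and 7.58, 8.74 and 8.28 FPKM in Sg-C3. Its values do not overlap either, with a log2 fold change of -0.18 that was not called (adjusted p = 0.145). Ratios within a library do not depend on how libraries are scaled. The ratio of Pmvk to Mvk in FPKM was 2.47, 2.89 and 2.52 in Sg-Con and 9.61, 7.25 and 5.52 in Sg-C3, and that of Pmvk to Mvd was 1.84, 2.18 and 2.19 against 5.11, 5.04 and 4.40. Neither ratio overlaps between the groups. That follows from the values above, since Pmvk lies wholly higher and Mvk and Mvd wholly lower in Sg-C3, so it is not separate support. Of 6 ratios computed among the 32 genes, the 2 of Pmvk and that of Abca1 to Soat1 separate the groups, and the other 3 overlap.

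The remaining genes of that arm overlapped between groups. Hmgcs1 encodes the synthase that makes HMG-CoA, an early intermediate, and ranged from 15.4 to 23.7 FPKM in Sg-Con and 17.9 to 28.7 FPKM in Sg-C3. Idi1 encodes the isomerase that makes dimethylallyl diphosphate and ranged from 7.87 to 10.6 and 6.92 to 11.96 FPKM. Fdps encodes farnesyl diphosphate synthase and ranged from 21.8 to 31.97 and 22.9 to 37.7 FPKM. Their log2 fold changes were 0.28, 0.11 and 0.21, with 95% intervals of -0.20 to 0.76, -0.36 to 0.58 and -0.29 to 0.71, each of which includes 0.

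Promoter sequence is a feature that the list did not use. RefSeq windows of 300 bases on GRCm38.p6, 250 before the start of transcription and 50 after, were found for 25 of the 32 genes. Searches on both strands covered 3 motifs: TCACNCCAC, a form of the sterol regulatory element bound by SREBP factors, CCAAT, bound by NF-Y, which acts with SREBP at sterol genes, and the E-box CACGTG. The box CCAAT was present in 22 of the 25 genes (88.0%), among them all 12 sterol synthesis enzymes with a window, against 41.06% of 27025 genes. That background holds every gene with a window, tested here or not, and shares among tested genes alone were not computed. TCACNCCAC was found in Hmgcs1, 1 of the 25 (1.44% of all genes), and CACGTG in 7 of the 25 (28.0%) against 8.09%. Some genes have more than 1 window and count once. A match describes letters, not binding. The 250 bases before the start are shown for the called genes that have a window, and for Hmgcs1 as the gene with the sterol regulatory element. They lie at chr3:89454291-89454540 (+ strand) for Pmvk, chrX:72918271-72918520 (+ strand) for Nsdhl, chr13:45389492-45389741 (+ strand) for Mylip, chr1:156474329-156474578 (- strand) for Soat1 and chr13:119690101-119690350 (+ strand) for Hmgcs1. Capitals mark CCAAT, its reverse complement ATTGG and, in Hmgcs1, the sterol regulatory element.
Pmvk: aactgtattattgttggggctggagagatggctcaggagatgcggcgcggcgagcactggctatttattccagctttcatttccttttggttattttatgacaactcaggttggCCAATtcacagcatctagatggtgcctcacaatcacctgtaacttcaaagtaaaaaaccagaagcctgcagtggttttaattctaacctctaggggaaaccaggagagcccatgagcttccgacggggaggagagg
Nsdhl: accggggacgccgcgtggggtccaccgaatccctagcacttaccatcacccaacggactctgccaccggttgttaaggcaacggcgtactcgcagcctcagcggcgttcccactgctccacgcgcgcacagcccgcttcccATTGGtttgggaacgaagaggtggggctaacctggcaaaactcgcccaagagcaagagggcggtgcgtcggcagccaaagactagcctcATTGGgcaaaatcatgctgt
Mylip: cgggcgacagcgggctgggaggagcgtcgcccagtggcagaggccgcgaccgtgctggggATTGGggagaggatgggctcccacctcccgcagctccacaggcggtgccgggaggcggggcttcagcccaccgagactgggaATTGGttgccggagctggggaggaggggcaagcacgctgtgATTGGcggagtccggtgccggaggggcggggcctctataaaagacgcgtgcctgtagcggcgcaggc
Soat1: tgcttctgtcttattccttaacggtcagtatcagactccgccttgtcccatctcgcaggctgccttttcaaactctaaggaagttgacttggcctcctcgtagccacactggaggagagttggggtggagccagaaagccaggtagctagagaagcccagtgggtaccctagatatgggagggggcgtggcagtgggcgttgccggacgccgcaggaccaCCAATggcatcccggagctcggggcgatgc
Hmgcs1: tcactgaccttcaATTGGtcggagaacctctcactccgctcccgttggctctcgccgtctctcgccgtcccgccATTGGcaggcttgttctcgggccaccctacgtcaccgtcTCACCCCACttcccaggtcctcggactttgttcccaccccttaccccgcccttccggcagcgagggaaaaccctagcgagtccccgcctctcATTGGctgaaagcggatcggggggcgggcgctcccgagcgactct
Pmvk and Soat1, which moved in opposite directions, each hold 1 CCAAT in the stretch shown, Nsdhl 2, and Mylip and Hmgcs1 3 each. A second RefSeq start of Pmvk has none of the 3 motifs in its window.

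In the squalene and lanosterol part of the pathway Sqle and Nsdhl were lower in Sg-C3 and none of the 9 genes was higher. Of all 15 sterol enzymes 1 (6.67%) was higher and 2 (13.3%) lower, against 12.7% and 31.7% of all tested genes. Sqle encodes squalene epoxidase, a control point of the pathway, and read 9.56, 12.6 and 15.9 FPKM in Sg-Con and 6.91, 9.07 and 8.36 FPKM in Sg-C3. The highest Sg-C3 value is just under the lowest Sg-Con value, and the log2 fold change was -0.57 (SE 0.18, adjusted p = 0.041). The call did not hold after median-ratio scaling (adjusted p = 0.123), quantile normalization (0.133) or with no filter (0.0538). It also failed when any library but the first of Sg-Con was left out, with adjusted p of 0.0942 and 0.101 for the second and the third of Sg-Con, and 0.125, 0.0699 and 0.0658 for the 3 of Sg-C3. Nsdhl encodes a dehydrogenase that helps to strip methyl groups from lanosterol, and read 7.84, 7.87 and 8.62 FPKM in Sg-Con and 4.47, 6.57 and 6.43 FPKM in Sg-C3. All Sg-C3 values are below all Sg-Con values, replicate 1 being the lowest, and the log2 fold change was -0.43 (SE 0.15, adjusted p = 0.0462). Its adjusted p was 0.176 after median-ratio scaling, 0.191 after quantile normalization, 0.0627 with no filter and 0.0625 with title style as a covariate. Leaving out a Sg-Con library gave 0.0868, 0.091 and 0.116, and leaving out the first or the second of Sg-C3 gave 0.095 and 0.0603.

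Hsd17b7, whose enzyme completes a methyl removal after Nsdhl, read 1.69, 1.88 and 2.42 FPKM in Sg-Con and 1.08, 1.41 and 1.66 FPKM in Sg-C3. Its groups nearly touch without overlapping, and it was not called (log2 fold change -0.33, SE 0.15, adjusted p = 0.101). Msmo1, the methylsterol oxidase of the same demethylation, ranged from 14.1 to 21.4 FPKM in Sg-Con and 12.1 to 15.4 FPKM in Sg-C3. It overlapped through Sg-Con replicate 1 and was called lower without that library (log2 fold change -0.53, adjusted p = 0.0294, in place of -0.35 and 0.138). Dhcr7, which makes cholesterol from its direct precursor, ranged from 6.06 to 8.32 and 3.97 to 6.85 FPKM, which overlap (log2 fold change -0.36, adjusted p = 0.15).

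Cyp51, the lanosterol demethylase gene, and Sc5d, a desaturase gene of the late pathway, had fold changes above 0 that did not pass the test. Cyp51 ranged from 4.87 to 9.32 FPKM in Sg-Con and 5.83 to 9.59 FPKM in Sg-C3, and Sc5d from 4.6 to 7.36 and 5.91 to 7.75 FPKM. Their log2 fold changes were 0.25 and 0.24 (adjusted p = 0.435 and 0.319). Fdft1, which makes squalene, stood at 4.08 ± 0.362 and 3.94 ± 0.469 FPKM, and Lss, which closes the sterol rings, at 1.58 ± 0.262 and 1.38 ± 0.202 FPKM (SD, n = 3). In the GENCODE annotation, exons of Fdft1, Cyp51, Elovl1 and Srebf1 overlap exons of Ctsb, Akap9, Cdc20 and Rai1 on the opposite strand. It is not stated whether counting used strand, so reads of each such pair cannot be told apart.

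Levels differed more between the enzymes than between the groups. In Sg-Con the means ran from 1.58 FPKM for Lss and 1.997 FPKM for Hsd17b7 to 18.6 FPKM for Msmo1, 18.8 FPKM for Hmgcs1, 19.5 FPKM for Pmvk and 25.2 FPKM for Fdps. Msmo1, Hmgcs1 and Pmvk overlap one another there, and Fdps overlaps Hmgcs1. In Sg-C3, Pmvk had the highest mean at 39.8 ± 3.91 FPKM, with Fdps at 29.5 ± 7.54 FPKM, and these overlap. The summed level of the 15 enzymes was 135, 149 and 182.5 FPKM in Sg-Con and 149, 197 and 166 FPKM in Sg-C3, which overlap.

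**Figure D2:**
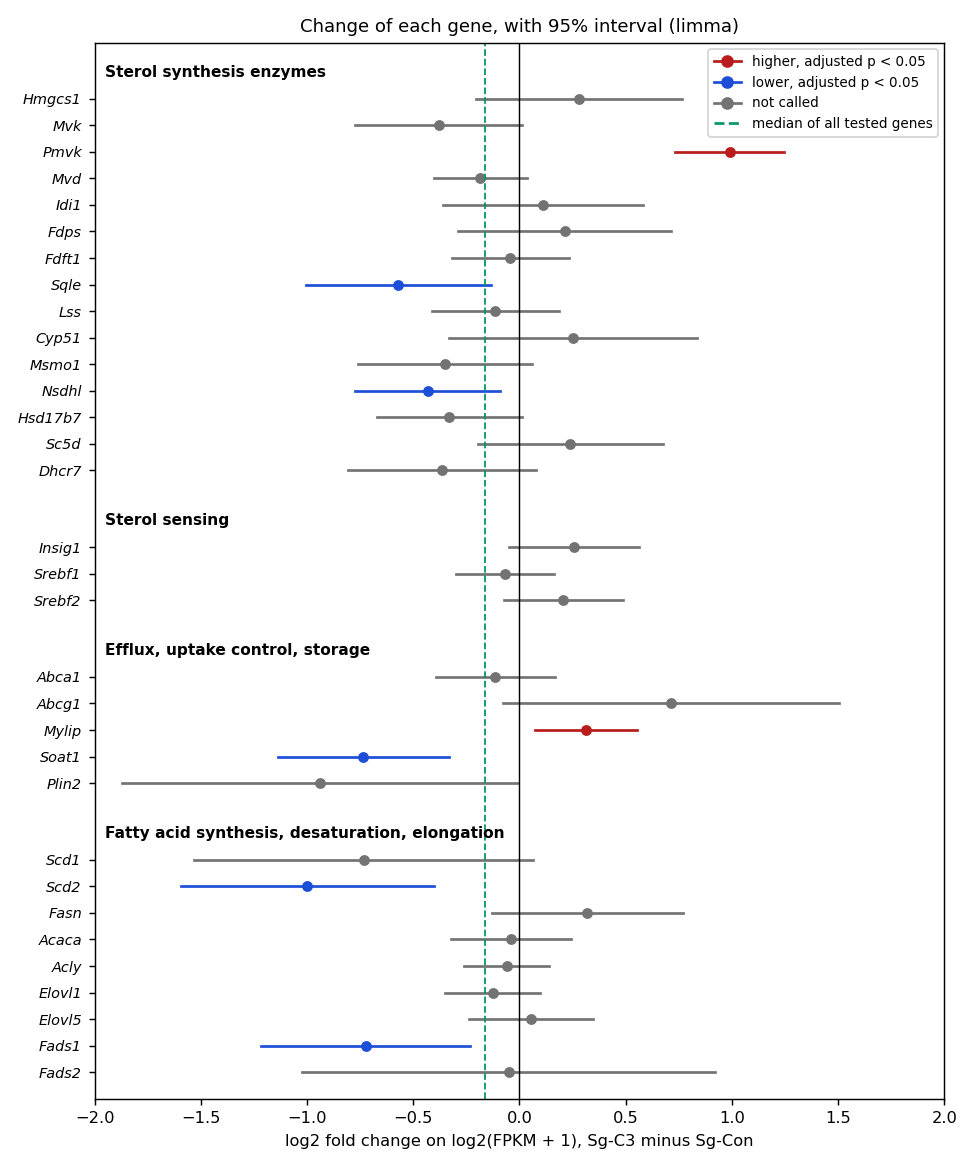
Log2 fold change of each gene (points) with its 95% limma interval (lines), Sg-C3 minus Sg-Con, coloured by call, with a dashed line at -0.16, the median of all tested genes. For 25 of the 32 genes the interval is grey, not called, and the Pmvk interval of 0.73 to 1.24 lies to the right of 0.

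None of the 3 sterol sensing genes was called. Insig1 read 35.9, 42.9 and 50.5 FPKM in Sg-Con and 48.6, 54.2 and 50.99 FPKM in Sg-C3. Sg-Con replicate 3 reaches into the Sg-C3 range, and the log2 fold change was 0.26 (adjusted p = 0.143), called higher only after median-ratio scaling (0.42, adjusted p = 0.0474). Srebf2 read 31.3, 33.2 and 37.8 FPKM in Sg-Con and 35.9, 45.1 and 37.7 FPKM in Sg-C3. Srebf1 read 23.4, 22.6 and 24.4 FPKM in Sg-Con and 24.4, 20.2 and 22.7 FPKM in Sg-C3. Both overlap, with log2 fold changes of 0.21 and -0.07 and 95% intervals of -0.07 to 0.49 and -0.30 to 0.16, and that of Srebf1 was 0.09 after median-ratio scaling. Their ratio, Srebf2 to Srebf1, was 1.34, 1.47 and 1.55 in Sg-Con and 1.47, 2.24 and 1.66 in Sg-C3, which overlap. The activity of SREBP factors is set by cleavage of the protein, which RNA levels do not measure.

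Among the genes of sterol handling outside synthesis, Soat1 fell and Mylip rose, while the exporters were not called. Of the 5 genes of efflux, uptake control and storage 1 (20%) was higher and 1 (20%) lower, against 12.7% and 31.7% of all tested genes. Soat1 encodes the enzyme that esterifies cholesterol for storage in droplets, and read 45.8, 41.2 and 34.5 FPKM in Sg-Con and 20.3, 21.7 and 30.3 FPKM in Sg-C3. All Sg-C3 values are lower, replicate 3 being the nearest to Sg-Con, and the log2 fold change was -0.74 (SE 0.17, adjusted p = 0.0136). Of 14 alternative fits 13 kept the call, the exception being the one without Sg-C3 replicate 2 (-0.67, adjusted p = 0.0536). Mylip encodes an LXR-induced ubiquitin ligase and read 24.8, 20.4 and 21.2 FPKM in Sg-Con and 28.7, 28.2 and 26.2 FPKM in Sg-C3. The Sg-C3 values are higher by a small margin, with a log2 fold change of 0.31 (SE 0.10, adjusted p = 0.042). The adjusted p was 0.0504 with no filter and 0.066 with title style as a covariate. It was 0.123 and 0.113 when the second or the third Sg-Con library was left out, and 0.114 and 0.118 for the first or the second Sg-C3 library.

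Abca1 and Abcg1 export cholesterol to apolipoproteins and to lipoprotein particles. Abca1 read 100, 121 and 116 FPKM in Sg-Con and 91.7, 104 and 116 FPKM in Sg-C3. The groups overlap widely (log2 fold change -0.11, 95% interval -0.39 to 0.17). Abcg1 read 27.5, 10.6 and 18.9 FPKM in Sg-Con and 37.6, 21.5 and 32.4 FPKM in Sg-C3. Sg-Con replicate 1 lies inside the Sg-C3 range, and the log2 fold change was 0.71 (SE 0.34, adjusted p = 0.122), or 1.01 and called higher without that library (adjusted p = 0.0406). The ratio of Abca1 to Soat1, of export to esterification genes, was 2.19, 2.94 and 3.35 in Sg-Con and 4.51, 4.79 and 3.84 in Sg-C3, which do not overlap. Since Abca1 overlaps and Soat1 lies wholly lower in Sg-C3, the ratio is not separate support. Plin2 coats lipid droplets and had the highest level of the 32, with 524, 344 and 204 FPKM in Sg-Con and 256, 110 and 184 FPKM in Sg-C3. The libraries of each group are far apart and the groups overlap (log2 fold change -0.94, SE 0.40, adjusted p = 0.0904). Without Sg-Con replicate 3 it was called lower (-1.29, adjusted p = 0.0327).

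Among the 9 fatty acid genes the desaturase genes Scd2 and Fads1 were lower and the 7 others were not called. That is 22.2% lower and 0 higher, against 31.7% and 12.7% of all tested genes. Scd2 encodes a desaturase that puts the first double bond into saturated fatty acids, and read 21.9, 29.9 and 38.7 FPKM in Sg-Con and 10.5, 14.3 and 18.96 FPKM in Sg-C3. All Sg-C3 values are below all Sg-Con values, and the log2 fold change was -0.998 (SE 0.25, adjusted p = 0.018). The adjusted p was 0.0558 without Sg-C3 replicate 1 and 0.0569 without Sg-C3 replicate 2. Fads1, which helps to make arachidonic acid and other long unsaturated fatty acids, read 43.7, 28.03 and 33.6 FPKM in Sg-Con and 15.8, 21.4 and 25.5 FPKM in Sg-C3. It was lower in every Sg-C3 library, with a log2 fold change of -0.72 (SE 0.21, adjusted p = 0.0284). Its adjusted p was 0.0718 after median-ratio scaling, 0.0737 or 0.0562 when the first or the third Sg-Con library was left out, and 0.0803 or 0.072 for the first or the second Sg-C3 library. Macrophage marker RNA, most of it Lyz2, and carcinoma marker RNA summed to less in Sg-C3 as well, and their part in these values was not tested.

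The paralogues of these desaturases overlapped between groups. Scd1 read 4.24, 12.7 and 11.3 FPKM in Sg-Con and 5.02, 4.35 and 4.98 FPKM in Sg-C3. The Sg-C3 values are close together while Sg-Con replicate 1 sits below them, and the log2 fold change was -0.73 (SE 0.34, adjusted p = 0.115). Without Sg-Con replicate 1 it was -1.17 and called lower (adjusted p = 0.00272). The level of Scd2 exceeded that of Scd1 in every library, by 2.09 to 5.17 times, a ratio that overlaps between the groups. Fads2, which acts before Fads1, read 3.36, 2.81 and 10.4 FPKM in Sg-Con and 3.28, 6.24 and 4.5 FPKM in Sg-C3. Sg-Con replicate 3 stands above all other libraries, and the 95% interval of -1.02 to 0.92 is the widest of the 32. The ratio of Fads1 to Fads2 was 13.02, 9.98 and 3.23 in Sg-Con and 4.81, 3.44 and 5.66 in Sg-C3, which overlap. Scd1 and Scd2 are similar in sequence, so reads that match both could have been split between them in counting.

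Acly makes cytosolic acetyl-CoA from citrate, Acaca carboxylates it, and Fasn builds palmitate from the product. Acly stood at 48.8 ± 2.98 FPKM in Sg-Con and 46.7 ± 1.44 FPKM in Sg-C3, Acaca at 4.71 ± 0.686 and 4.53 ± 0.287 FPKM, and Fasn at 9.34 ± 2.52 and 11.7 ± 1.33 FPKM (SD, n = 3). Their log2 fold changes were -0.06, -0.04 and 0.32, with 95% intervals of -0.26 to 0.14, -0.32 to 0.24 and -0.13 to 0.77. The elongase gene Elovl1, for very long saturated chains, stood at 50.7 ± 4.19 and 46.3 ± 2.73 FPKM, and Elovl5, for unsaturated chains, at 36.04 ± 4.08 and 37.5 ± 4.203 FPKM. Neither was called (adjusted p = 0.309 and 0.737). After median-ratio scaling Acly, Acaca and Elovl1 had log2 fold changes of 0.10, 0.10 and 0.04, so no direction is given for them.

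Within each group, most sterol enzymes were high or low in the same library. In Sg-Con, replicate 3 held the highest value for 12 of 15 enzymes and replicate 1 the lowest for 12 of 15, which was so for 31.5% and 28.6% of all tested genes. In Sg-C3, replicate 1 held the lowest value for 12 of 15 and replicate 2 the highest for 9 of 15, against 26.3% and 18.2% of all tested genes. Cyp51 is an example, with its Sg-Con values of 4.87, 5.37 and 9.32 FPKM, and Fdps another, with its Sg-C3 values of 22.9, 37.7 and 27.9 FPKM. On the log2(FPKM + 1) scale the median deviation of the 15 enzymes from their group mean was 0.20 in Sg-Con replicate 3 and -0.20 in Sg-C3 replicate 1. Of the 9 fatty acid genes 7 were highest in Sg-Con replicate 3 and 7 lowest in Sg-C3 replicate 1. The 5 genes of efflux, uptake control and storage had another order, with 4 highest in Sg-Con replicate 1 and 0 highest in Sg-Con replicate 3, against 43.3% and 31.5% of all tested genes. Plin2 and Abcg1 were also both highest in Sg-C3 replicate 1 and lowest in Sg-C3 replicate 2. Among the Sg-C3 libraries, replicate 1 also had the most neutrophil marker RNA (1332 FPKM against 699 and 389 FPKM), the lowest macrophage marker sum (4005 FPKM) and the fewest implied reads (17.6 megareads), and the part of these in the pattern was not tested. Replicate 3 of each group also has another style of title than replicates 1 and 2, and the part of that in the pattern was not tested. Genes of a library share its depth and its cells, so these counts are a description.

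**Figure D3:**
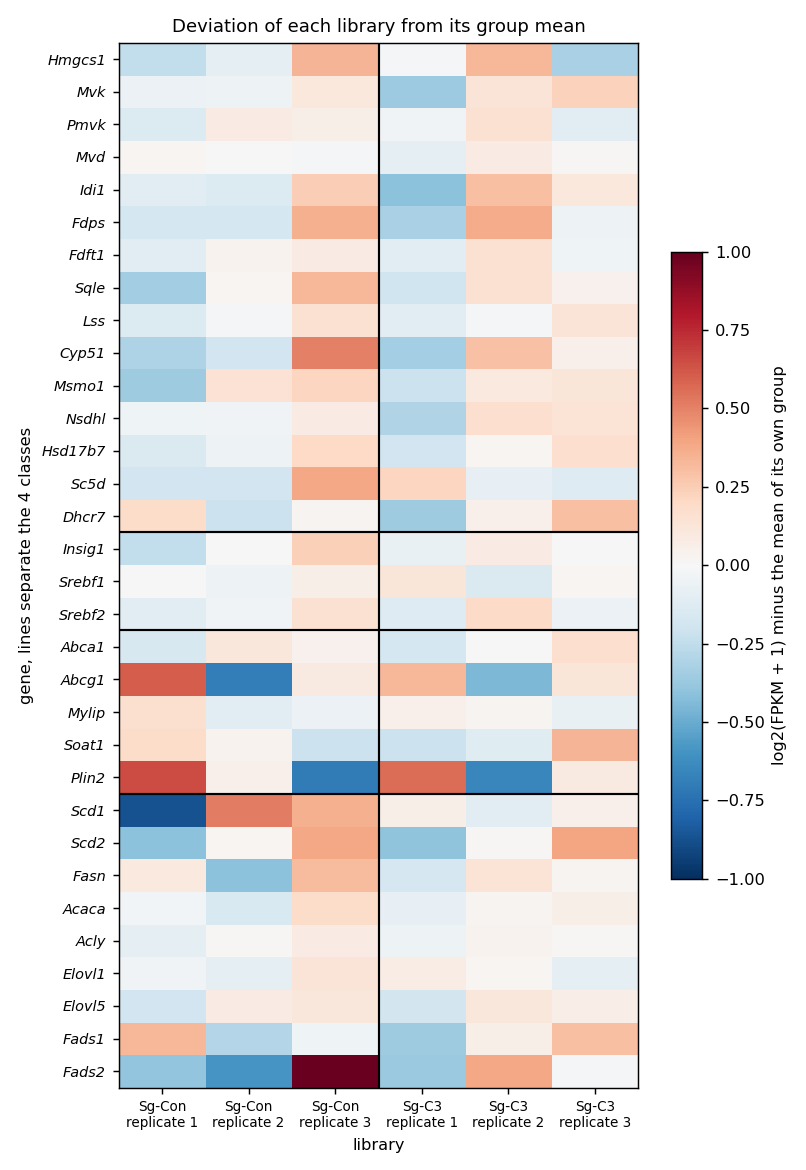
Heat map of log2(FPKM + 1) minus the mean of the same group for the 32 genes (rows, with lines between the 4 classes) and 6 libraries (columns), red above and blue below the group mean. The sterol enzymes are mostly red in Sg-Con replicate 3, where 12 of 15 are highest, and mostly blue in Sg-C3 replicate 1, where 12 of 15 are lowest.

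Genes next to these in sterol biology were read in the same fit. Of 13 other sterol synthesis and SREBP pathway genes 0 were higher by limma and 3 lower (23.1%, against 31.7% of all tested genes), with 4 at an unadjusted p under 0.05, against 6088 of all 11198. Insig2, a homologue of Insig1, fell from 7.19 ± 0.905 to 4.39 ± 0.325 FPKM (SD, n = 3; adjusted p = 0.00797), and Mbtps2, a protease that releases SREBP, from 6.17 ± 0.452 to 3.34 ± 0.9404 FPKM (adjusted p = 0.0124). Ebp, a late sterol isomerase gene, fell from 27.5 ± 1.54 to 20.97 ± 2.102 FPKM (adjusted p = 0.0228), with 0.165 after median-ratio scaling, 0.0581 after quantile normalization, 0.0724 and 0.0562 without the first or the second Sg-Con library and 0.0721 without the first Sg-C3 library.

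Of 8 tested nuclear receptor and oxysterol genes 4 were lower, against 31.7% of all tested genes. Ch25h, which makes 25-hydroxycholesterol, an oxysterol that blocks SREBP processing, read 79.6, 34.8 and 76.6 FPKM in Sg-Con and 9.2, 14.9 and 16.4 FPKM in Sg-C3. Every Sg-C3 library was lower (log2 fold change -2.10, SE 0.34, adjusted p = 0.00465), and the call held in all 14 alternative fits. The receptor gene Rxra and the cofactor genes Ncor1 and Ncoa1 had log2 fold changes of -0.59, -0.37 and -0.55, and after median-ratio scaling none of them was called (adjusted p = 0.0596, 0.103 and 0.0529). Without the second Sg-C3 library 1 of the 8 was lower, and without the first 2 were, where 17.9% and 21.9% of all tested genes were lower. The LXR genes Nr1h3 and Nr1h2 were not called, with log2 fold changes of 0.57 and 0.21. Nr1h3 was called higher without the first Sg-Con library (0.91, adjusted p = 0.0276), and Nr1h2 after quantile normalization (0.27, 0.0424) and median-ratio scaling (0.38, 0.0133). Among 6 genes of lysosomal sterol transport or of esterases, Npc1 fell from 38.5 ± 1.52 to 21.8 ± 1.5 FPKM (adjusted p = 0.00189). The Npc1 product moves cholesterol out of the lysosome. Nceh1, a cholesterol ester hydrolase gene, also fell (log2 fold change -0.54, adjusted p = 0.0134), but was not called after median-ratio scaling (0.0622), and the other 4 were not called (2 of 6, or 33.3%, lower, against 31.7%).

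Of 17 tested genes of fatty acid synthesis and activation outside the 32, 2 were higher and 7 lower, or 11.8% and 41.2%, against 12.7% and 31.7% of all tested genes. The acyl-CoA synthetase gene Acsl1 rose from 11.7 ± 1.97 to 32.2 ± 9.86 FPKM, and its relative Acsl3 fell from 6.34 ± 0.545 to 3.02 ± 0.393 FPKM, and both calls held in every alternative fit that tested them. Mid1ip1, whose product activates acetyl-CoA carboxylase, fell from 30.5 ± 1.46 to 13.9 ± 3.52 FPKM. Me1, the gene of malic enzyme, which supplies NADPH, rose from 0.667 ± 0.164 to 1.91 ± 0.4703 FPKM, and it passed the filter only through its Sg-C3 values. Acss2, counted among the lower genes, reached 1 FPKM in every library of Sg-Con but not of Sg-C3, where it read 0.82, 1.21 and 1 FPKM. Me1 was not tested when any Sg-C3 library was left out or at a mean of at least 5 FPKM, which left 1 of the list higher, and 4 were lower at that mean. At that mean 14.2% of all tested genes were higher and 33.9% lower. The other lower genes were Hacd1, Mcat, Hacd3, Acss2 and Tecr, with log2 fold changes of -0.81, -0.67, -0.66, -0.55 and -0.34. The calls of Hacd1 and Tecr were lost under both other scalings, and they held in 5 of 13 and 8 of 14 alternative fits.

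Of 17 genes of fatty acid uptake and oxidation 10 were lower and 2 higher, or 58.8% and 11.8%, against 31.7% and 12.7% of all tested genes. The transporter gene Slc27a1 fell from 69.3 ± 9.298 to 25.8 ± 4.55 FPKM, and Cpt1a, the gate of mitochondrial fatty acid oxidation, from 28.1 ± 6.83 to 14.7 ± 2.87 FPKM. The lipid chaperone gene Fabp4 fell from 8.88 ± 4.74 to 2.84 ± 0.403 FPKM, and Acadm, of mitochondrial oxidation, had a log2 fold change of -0.86. Those of the other mitochondrial genes Cpt2, Acadl, Acadvl, Hadha and Hadhb were -0.56, -0.55, -0.39, -0.34 and -0.25. The Hadhb call held in 5 of 14 alternative fits, that of Acadvl in 7 of 14, that of Cpt2 in 7 of 13 and that of Hadha in 10 of 14, and without the second Sg-C3 library Fabp4 and Acadl were not called either (adjusted p = 0.0556 and 0.0659). After median-ratio scaling 6 of the 17 were lower, without the first Sg-Con library 6, and without the second Sg-C3 library 4, where 19%, 21.9% and 17.9% of all tested genes were lower. The receptor gene Pparg read 4.12, 0.96 and 3.9 FPKM in Sg-Con and 8.87, 7.29 and 11.3 FPKM in Sg-C3. Its Sg-C3 values are all higher, and only in Sg-C3 did every library reach 1 FPKM. Ppard rose from 20.02 ± 0.841 to 27.5 ± 3.84 FPKM. Without the first Sg-C3 library neither was called (adjusted p = 0.054 and 0.0681), and Ppard was not called without the first or the second Sg-Con library (0.0637 and 0.0602) or the second Sg-C3 library (0.0757).

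Of 12 tested droplet and triglyceride genes 5 were higher and 3 lower, or 41.7% and 25%, against 12.7% and 31.7% of all tested genes. Dgat1 and Dgat2 encode the acyltransferases that complete triglyceride synthesis. Dgat1 read 13.5, 11.6 and 18.7 FPKM in Sg-Con and 43.4, 47.9 and 47.7 FPKM in Sg-C3, and Dgat2 rose from 4.12 ± 0.336 to 9.13 ± 1.27 FPKM. G0s2, whose product inhibits triglyceride lipase, read 3.1, 1.38 and 4.6 FPKM in Sg-Con and 23.6, 19.5 and 18.01 FPKM in Sg-C3. The groups of Dgat1 and G0s2 are far apart (log2 fold changes 1.62 and 2.48, adjusted p = 0.0015 and 0.00203), and both calls held in all 14 alternative fits. The hormone-sensitive lipase gene Lipe and the phosphatase gene Lpin2 were higher, with log2 fold changes of 0.56 and 0.45, and Lpin2 was not called without the first or the second Sg-C3 library (adjusted p = 0.0535 and 0.0581). The droplet coat gene Plin3 fell from 30.5 ± 2.42 to 15.6 ± 1.87 FPKM, and Agpat2 and Abhd5 had log2 fold changes of -0.69 and -0.43. The Abhd5 call held in 5 of 14 alternative fits. It was lost with no filter (adjusted p = 0.0569), with median-ratio scaling (0.174), quantile normalization (0.196) or title style as a covariate (0.0714), and when any library but the first of Sg-Con was left out (0.0691 to 0.127). The list medians were -0.39 for uptake and oxidation and 0.12 for droplets and triglycerides, against -0.16 for all tested genes, and the difference between these lists and the 32 genes was not tested.

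**Figure D4:**
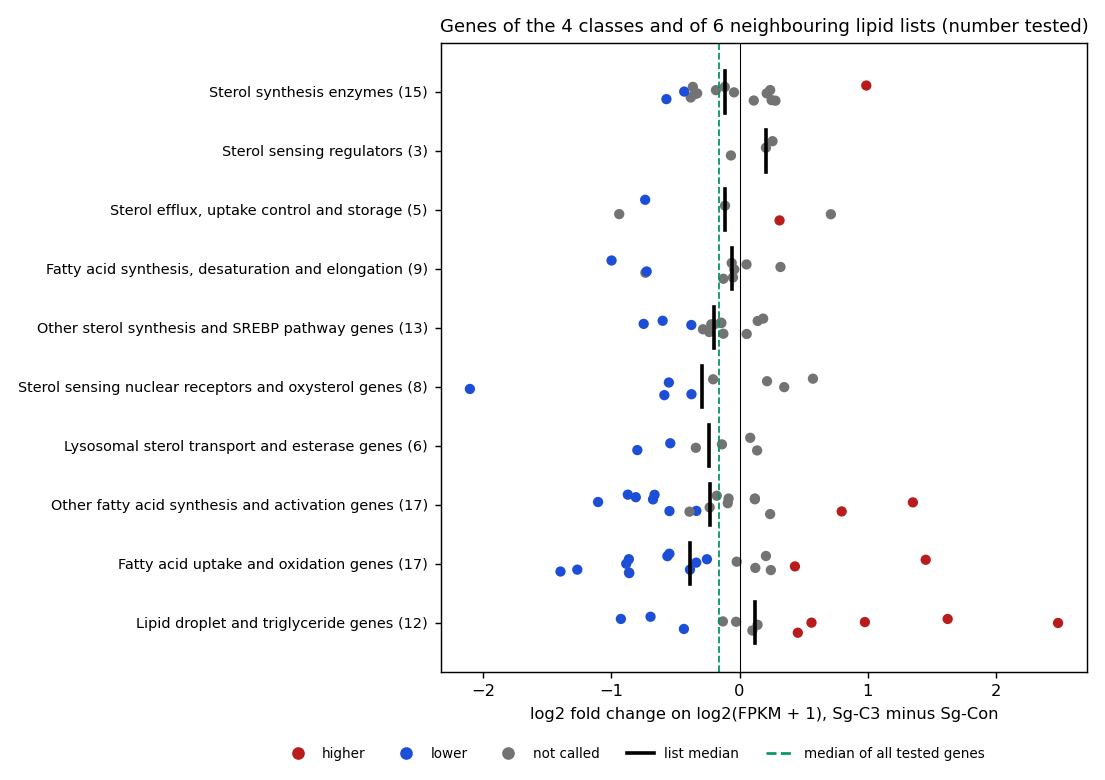
Log2 fold change, Sg-C3 minus Sg-Con, of each tested gene (points, coloured by call) in the 4 classes of the 32 genes and in 6 neighbouring lipid lists, with the number tested in brackets, black bars at list medians and a dashed line at the median of all tested genes, -0.16. In the upper 4 rows most points are grey, 25 of 32, and the points farthest to the right are G0s2 at 2.48 and Dgat1 at 1.62 in the lowest row.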

How the data were processed

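RNA of sorted tumour macrophages was measured in 6 libraries, 3 per group. The deposited table gives FPKM per gene with 2 decimals, per the file headers. Per the submitters' processing notes the tools include Bowtie 0.12.2 and the build is mm8. Per the labels' protocols RNA was taken with Trizol, and TruSeq and MGIEasy kits are both named. The FPKM tool and the use of strand are not stated. Depth came from genes of at most 400 bases, whose values of up to 8 reads were whole within 0.1 read in 88.2% to 93.4% of cases (20% by chance) once 36 bases were taken from each length.

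A gene entered the fit at 1 FPKM or more in 3 libraries or more. The 11198 such genes were fitted on log2(FPKM + 1) by limma 3.58.1 under R 4.3.3, using eBayes with a trend and no covariate, and Benjamini-Hochberg adjustment ran over all of them. SE and 95% intervals are from limma, SD is over 3 libraries, and a fold is a ratio of mean FPKM. The members, the lists and the rule for named genes (all 32, and each called gene of the neighbouring lipid lists, of which some are not reported here) were chosen with earlier results of these data known. In 10 simulated sets of 11198 genes, 200 of them changed and drawn from genes of medium or high level, 79.3% of 2-fold and 96.1% of 4-fold changes were found, and 5.2% of calls were false.

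Alternatives changed 1 choice each: the pseudocount (0.1), the filter (none, or a mean of 5 FPKM), the scaling (median-ratio, or quantile), library weights from limma, a robust variance prior, title style as a covariate (TAM or C3KO names against CON or SGC3 names), a threshold of 0.1, or 1 library left out. The CON and SGC3 names belong to the last replicate of each group. Motifs were read in RefSeq windows of GRCm38.p6, and no deposited value was placed by coordinate. Tables and plots used Python 3.11.15 with numpy 2.4.6, pandas 2.3.3, matplotlib 3.10.9 and scipy 1.17.1. The cluster column was not used here.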

Additional observations from a re-analysis of the deposited data

How the results depend on the processing

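Scaling set the balance of calls. The median log2 fold change of all genes was -0.16 as deposited, -0.06 with quantile normalization and -0.02 with median-ratio scaling. Lower calls were 71.5%, 56.9% and 50.3% of all calls, and 2129 genes were lower after median-ratio scaling against 3554. Of the 32 genes, 2 were lower after median-ratio scaling, 3 after quantile normalization and 3 with no filter, and 1 was higher with no filter and 1 with title style as a covariate. Of all tested genes 19%, 21.9% and 22.1% were lower in the same order, and 10.01% and 10.7% higher. Of the sterol enzymes 0 were lower with no filter, quantile normalization or median-ratio scaling, and 1 with title style, where 25.96% of all tested genes were lower. Median-ratio scaling called 1 regulator higher and 1 fatty acid gene lower, against 18.7% and 19% of all tested genes. Of the efflux and storage genes 0 were higher with no filter or with title style. At a threshold of 0.1, 2 of these 5 were lower, against 39.3% of all tested genes. Fold changes of 7 uncalled genes turned positive after median-ratio scaling: Fdft1 0.091, Srebf1 0.093, Abca1 0.052, Acaca 0.10, Acly 0.10, Elovl1 0.037 and Fads2 0.087. After quantile normalization this held for Fdft1 0.13, Srebf1 0.024, Acaca 0.13 and Fads2 0.10. The cause was not tested.

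With 1 library left out, 810 to 1423 genes (7.35% to 12.9%) were higher and 1970 to 3639 (17.9% to 33.05%) lower. Of the 32, 1 to 3 were higher and 0 to 5 lower, with 0 to 2 lower among sterol enzymes, 0 to 2 higher and 0 to 2 lower among efflux and storage genes, and 0 to 2 lower among fatty acid genes. Log2 fold changes crossed 0 for Idi1 (-0.039 to 0.32), Fdft1 (-0.12 to 0.0095), Srebf1 (-0.13 to 0.0038), Acaca (-0.12 to 0.051), Elovl5 (-0.040 to 0.15) and Fads2 (-0.35 to 0.44). An arm left with 2 libraries shares the spread of the other. Pmvk kept its call throughout. Small changes of low genes are limited by depth. No paired analysis was possible because the replicate numbers come from accession order.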
